A study of Caenorhabditis elegans with 12 samples.

Results

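The genes described here are 44 genes of *Caenorhabditis elegans* whose products release neurotransmitter from synapses, or make, load and recover it. They were chosen by name, and the rule kept those that were listed in the deposited gene table and had at least 10 read counts in at least 3 of the 12 libraries. All 44 met it, out of 20212 genes in the table, and all 44 were among the 15048 genes that passed the filter on low counts and were tested. In 42 of them every library had at least 10 counts. The exceptions were *tph-1*, the tryptophan hydroxylase that starts serotonin synthesis (4 to 34 counts), and *unc-46*, which sorts the GABA transporter to vesicles (6 to 31 counts).

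The study sequenced poly(A) RNA of whole larvae, which its methods place at the L4 stage, to ask which transcripts depend on the microRNA miR-71 during mitochondrial stress. Wild-type animals were the N2 strain, and *mir-71* deletion animals were the strain MT12993, which carries the allele *mir-71(n4115)* in all its cells. Each strain was kept on plates with OP50 bacteria that had received either water or sodium azide, an inhibitor of complex IV of the respiratory chain. The 4 groups (wild type on water, wild type on azide, deletion on water, deletion on azide) had 3 biological replicates each. The deletion strain stands for a single allele, and in whole animals the RNA of all tissues is pooled.

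A neuron releases transmitter when vesicles that carry synaptobrevin are joined to syntaxin and SNAP-25 of the plasma membrane. Priming factors prepare the vesicles, calcium that enters through voltage-gated channels triggers fusion through synaptotagmin, and endocytosis recovers the membrane. Kinesins bring vesicles to the synapse, scaffold proteins mark the release site, and G proteins set how much is released. Each transmitter has its own enzymes and transporters, and in *C. elegans* the genes for acetylcholine, glutamate, GABA, dopamine, serotonin, tyramine and octopamine mark the neurons that use them.

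The 12 libraries held between 16828108 and 23937993 counts. *ppfr-1*, the gene that hosts *mir-71* in an intron, stood at 98.7 to 107 CPM in the 6 wild-type libraries and at 426 to 796 CPM in the 6 deletion libraries, which separated the genotypes as labelled. CPM are read counts scaled to a common library size by TMM factors, and all fold changes below rest on this scaling unless another is named. Markers of neurons were present in every library: the summed level of the neuron list was 1215 to 1452 CPM in wild type on water, 959 to 973 CPM in wild type on azide, 1202 to 1297 CPM in the deletion on water, and 869, 1084 and 1406 CPM in replicates 1, 2 and 3 of the deletion on azide. In the deletion on azide the 3 libraries differed from each other. The vitellogenins, yolk protein genes, summed to 2130, 238 and 1046 CPM in replicates 1, 2 and 3, and replicate 1 had the fewest counts of all libraries. Most of the 44 synaptic genes were highest in replicate 3, a share that was not counted over all genes. Results that rest on replicate 3 are also given after leaving it out. In whole animals, fewer cells of a type, less RNA per cell and a larger share of RNA from other tissues cannot be told apart.

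The levels of the 44 genes spanned a wide range. On the FPKM scale, which divides by the gene size listed in the table, the highest mean in wild type on water was 306 FPKM for *snb-1*, the vesicle synaptobrevin. Next came *egl-30*, the Gq alpha subunit that promotes release (141 FPKM), *goa-1*, the Go alpha subunit that opposes it (104.1 FPKM), *unc-116*, the heavy chain of kinesin-1 (79.9 FPKM), and *unc-18*, the Munc18 partner of syntaxin (44.7 FPKM). The lowest were *dat-1*, the dopamine transporter (0.75 FPKM), *unc-46* (0.627 FPKM) and *tph-1* (0.367 FPKM). The listed size was shorter than the annotated exons for all 44 genes, so these FPKM order the genes but are not exact molar levels. *snb-1* kept the first place in all 4 groups, and *egl-30*, *goa-1* and *unc-116* filled the next 3 places in each.

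**Figure D1:**
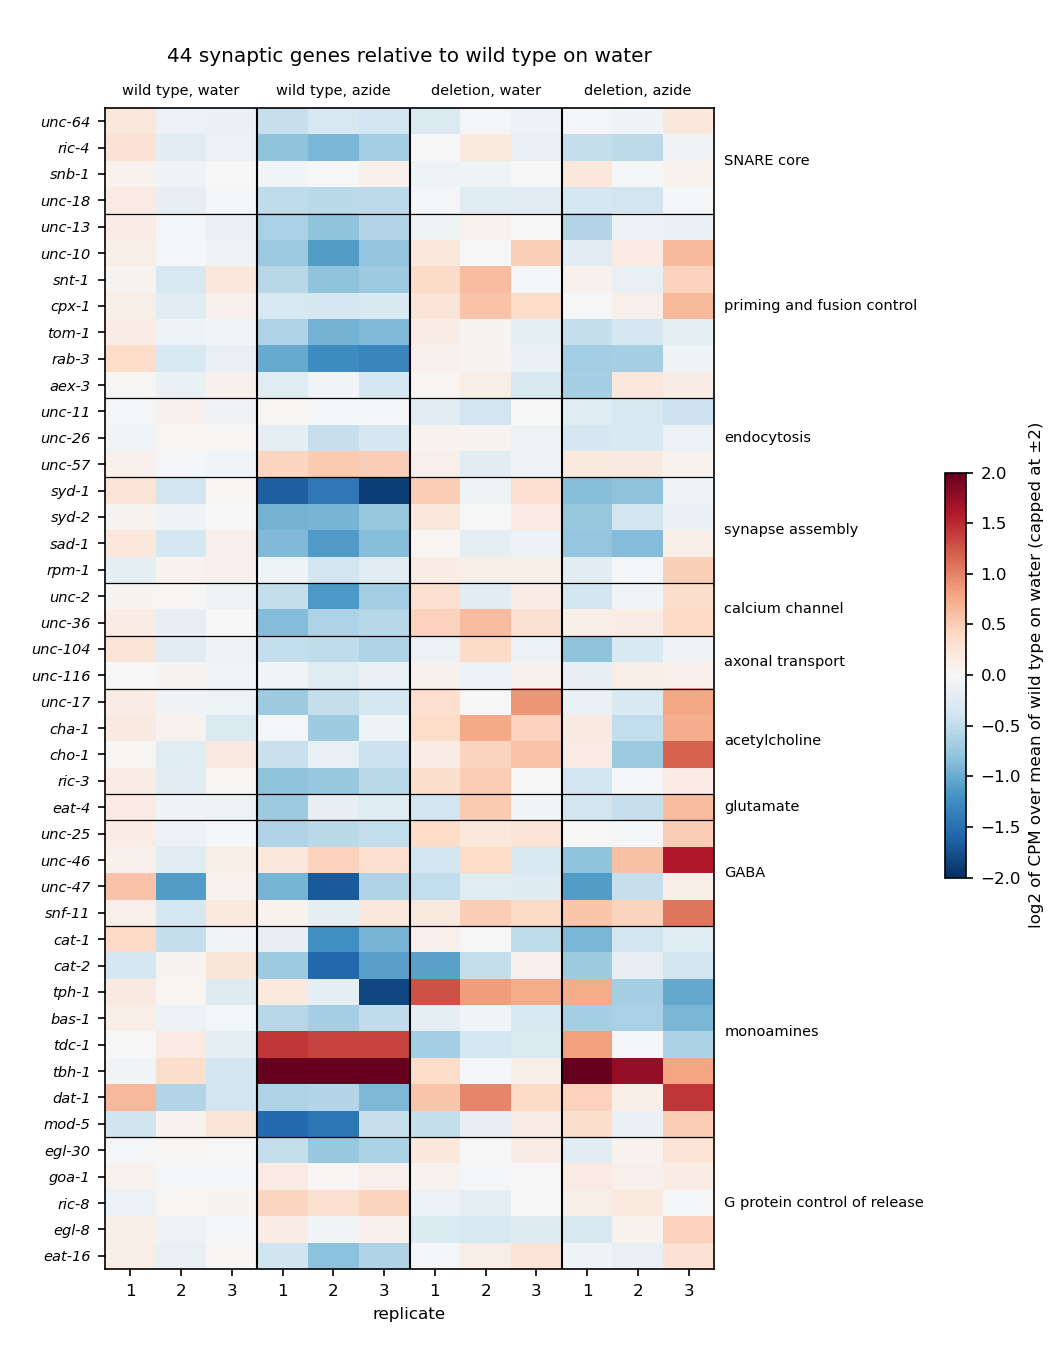
Level of each of the 44 synaptic genes in each of the 12 libraries (columns, replicates 1 to 3 of each group), as log2 of the CPM over the mean of wild type on water, with genes in rows by role. The 3 libraries of wild type on azide are mostly blue, *tbh-1* and *tdc-1* are red there, and replicate 3 of the deletion on azide is the reddest of its group.

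Azide against water in wild-type animals was the comparison with the most changes. Of the 44 genes, 22 fell and 4 rose past an adjusted p of 0.05 by edgeR's quasi-likelihood test, with 18 not called. Of all genes tested, 27.1% fell and 27.5% rose. The median log2 fold change of the 44 genes was -0.53, against -0.05 over all genes. Groups did not overlap for 31 of the 44, lower on azide in 26 and higher in 5, where 34.2% and 33.6% of all genes were separated in these directions. The counts depended on the scale. When the libraries were centred on neuron markers rather than on all genes, 2 synaptic genes fell (*syd-1* and *rab-3*) and 10 rose. Of all genes, 10.4% fell and 47.9% rose there. The median became 0.05 while that of all genes became 0.52, so it stayed below that of all genes. Such centring takes out any fall that the neuron markers share. With TMM scaling, 12 of the 21 neuron markers tested fell and 2 rose, with a median of -0.72.

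Within the fusion machinery, *unc-64* (syntaxin), *ric-4* (SNAP-25) and *unc-18* fell, with log2 fold changes from -0.80 to -0.39, whereas *snb-1* had a log2 fold change of 0.01 and was not called. Ratios of genes within a library do not depend on scaling, but in whole animals they can change with the mix of tissues. They are given as descriptions, without a test, and how often other gene pairs separate was not counted. The FPKM ratio of *ric-4* to *snb-1* was 0.0983 ± 0.0137 in wild type on water and 0.0564 ± 0.00340 on azide (SD, n = 3), with no overlap between the groups.

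Of the 7 genes that prime vesicles and control fusion, 5 fell and none rose in this comparison: *unc-13* (Munc13), *unc-10* (the active zone scaffold RIM), *snt-1* (synaptotagmin), *tom-1* (tomosyn, an inhibitor of priming) and *rab-3*. The other two, *cpx-1* (complexin) and *aex-3* (the exchange factor of RAB-3), had log2 fold changes of -0.32 and -0.21 and were not called. *rab-3*, a GTPase of synaptic vesicles, lies on chromosome II at 5722323 to 5727651 (minus strand, WBcel235). Its level was 20.1, 12.6 and 14.1 CPM in replicates 1 to 3 of wild type on water and 7.78, 6.52 and 6.23 CPM on azide, and 16.6, 16.1 and 14.3 CPM in the deletion on water and 9.63, 9.88 and 14.8 CPM on azide. The 3 wild-type libraries on azide lay below all other libraries. The log2 fold change in wild type was -1.19 (SE 0.211, edgeR adjusted p = 0.000366). Relative to *snb-1* in the same library, the FPKM ratio of *rab-3* was 0.0672 ± 0.0136 on water and 0.0296 ± 0.00509 on azide (SD, n = 3), also without overlap.

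The genes that assemble synapses held the largest fall among the 44. *syd-1*, a RhoGAP-domain scaffold that places presynaptic sites, lies on chromosome II at 7586080 to 7594908 (minus strand). It stood at 7.90, 5.06 and 6.68 CPM in wild type on water, at 2.10, 2.43 and 1.77 CPM on azide, at 9.19, 6.10 and 8.21 CPM in the deletion on water and at 3.64, 3.73 and 6.26 CPM on azide. Wild type on azide was again below every other library. The log2 fold change was -1.64 (SE 0.276, edgeR adjusted p = 0.000241). *syd-2* (liprin-alpha) and *sad-1* (a kinase of presynaptic assembly) also fell, by 0.88 and 0.95 on the log2 scale, and *rpm-1*, a ubiquitin ligase that limits synapse growth, was not called at -0.22. The FPKM ratio of *syd-1* to *syd-2* went from 0.160 ± 0.0283 on water to 0.0956 ± 0.0202 on azide (SD, n = 3), and the groups did not overlap.

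Both calcium channel genes fell, *unc-2* (the pore subunit of the presynaptic CaV2 channel) by 0.75 and *unc-36* (its alpha2delta subunit) by 0.68. Of the kinesins, *unc-104* (KIF1A, the vesicle motor) fell by 0.54, and *unc-116* was not called at -0.14. The endocytosis genes parted: *unc-26* (synaptojanin) fell by 0.32, *unc-11* (the clathrin adaptor AP180) had a log2 fold change of -0.01, and *unc-57* rose. *unc-57* encodes endophilin, which works together with synaptojanin. It stood at 47.8, 43.8 and 43.6 CPM in wild type on water and at 60.6, 65.1 and 63.2 CPM on azide, without overlap. The log2 fold change was 0.48 (SE 0.0951, edgeR adjusted p = 0.000794), a call that was lost when libraries were centred on body wall muscle markers. The FPKM ratio of *unc-57* to *unc-26* was 3.96 ± 0.326 on water and 6.96 ± 0.907 on azide (SD, n = 3), without overlap.

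Of the acetylcholine genes, *ric-3*, a chaperone of nicotinic receptors, fell by 0.70, while *unc-17* (the vesicular transporter), *cha-1* (choline acetyltransferase) and *cho-1* (the choline transporter) had log2 fold changes of -0.50, -0.24 and -0.34 and were not called. *unc-17* and *cha-1* share 66 exon bases in the annotation, and reads from these cannot be assigned to either gene alone. *eat-4*, the vesicular glutamate transporter, was not called at -0.36. For GABA, *unc-25* (glutamate decarboxylase) fell by 0.54, and *unc-47* (the vesicular transporter), *unc-46* and *snf-11* (the plasma membrane transporter) were not called, at -0.98, 0.34 and 0.04.

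The monoamine genes moved in both directions. *tbh-1* encodes the tyramine beta-hydroxylase that makes octopamine, and *tdc-1* the tyrosine decarboxylase that makes tyramine. Besides a few neurons, the sheath cells of the gonad are known to use both genes. *tbh-1* lies on chromosome X at 15500354 to 15504795 (minus strand), and its level was 8.05, 10.7 and 6.49 CPM in wild type on water and 104.2, 111 and 95.3 CPM on azide. It was 10.9, 8.29 and 9.15 CPM in the deletion on water and 63.5, 28.3 and 14.5 CPM on azide. No library on azide overlapped those on water in either strain, and the 3 libraries of the deletion on azide were spread widely. In wild type the log2 fold change was 3.62 (SE 0.463, edgeR adjusted p = 0.000124), the largest change of any of the 44 genes. Of its annotated exon bases 18.2% are shared with *suox-1* and H13N06.7. *suox-1* had 1151 to 1186 counts in wild type on water and 657 to 769 on azide, and H13N06.7 had at most 5 counts in any library. Whether *tbh-1* shares reads with them was not tested.

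*tdc-1* (chromosome II, 8270607 to 8273541, plus strand) stood at 35.4, 39.7 and 31.5 CPM in wild type on water, at 95.8, 91.0 and 90.7 CPM on azide, at 22.2, 27.9 and 29.0 CPM in the deletion on water and at 62.9, 34.9 and 22.9 CPM on azide. The wild-type groups did not overlap, and those of the deletion did. The log2 fold change in wild type was 1.38 (SE 0.283, edgeR adjusted p = 0.00180). Of its exon bases 2.93% are shared with *gei-14*, which had 203 to 315 counts in wild type on water and 564 to 732 on azide. *gei-14* thus rose as well (log2 fold change 1.29, edgeR adjusted p = 0.000177), and sharing of reads was not tested. The levels of *tbh-1* and *tdc-1* did not rise in proportion: the FPKM ratio of *tbh-1* to *tdc-1* was 0.262 ± 0.0354 on water and 1.25 ± 0.0979 on azide (SD, n = 3), without overlap.

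Of the dopamine and serotonin genes described in this paragraph, those that were called in wild type fell: *bas-1*, *cat-2* and *mod-5*. Not every gene of these pathways fell. *cat-4*, which makes a cofactor of both syntheses and belongs to a companion list given below, rose (log2 fold change 1.48, edgeR adjusted p = 1.42e-06). *bas-1*, the aromatic amino acid decarboxylase shared by dopamine and serotonin synthesis, fell by 0.59. *cat-2*, the tyrosine hydroxylase of dopamine synthesis, stood at 1.92, 2.53 and 2.89 CPM in wild type on water and at 1.48, 0.828 and 1.15 CPM on azide. Its log2 fold change was -1.08 (SE 0.346, edgeR adjusted p = 0.0171), and the call was lost without replicate 3 on water or replicate 2 on azide. *mod-5*, the serotonin transporter, stood at 1.92, 2.68 and 3.03 CPM on water and at 0.870, 0.939 and 1.85 CPM on azide. Its log2 fold change was -1.04 (SE 0.339, edgeR adjusted p = 0.0185), and the call was lost in 4 of the fits that left out 1 library. For both genes the groups did not overlap. *cat-1* (the vesicular monoamine transporter), *dat-1* and *tph-1* had log2 fold changes of -0.70, -0.69 and -0.39 and were not called.

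Among the G protein genes, *egl-30* fell by 0.62 and *eat-16*, an RGS protein that shortens Gq signalling, by 0.60. *ric-8*, an exchange factor for G alpha subunits, rose from 14.9, 16.6 and 16.8 CPM on water to 21.7, 20.1 and 21.9 CPM on azide (log2 fold change 0.40, SE 0.118, edgeR adjusted p = 0.0108). That rise was not called with upper-quartile scaling, with muscle centring or without replicate 1 on water. *goa-1* and *egl-8* (phospholipase C beta, the effector of Gq) were not called, at 0.10 and 0.06. The FPKM ratio of *egl-30* to *goa-1* was 1.36 ± 0.0885 on water and 0.823 ± 0.0406 on azide (SD, n = 3), without overlap.

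**Figure D2:**
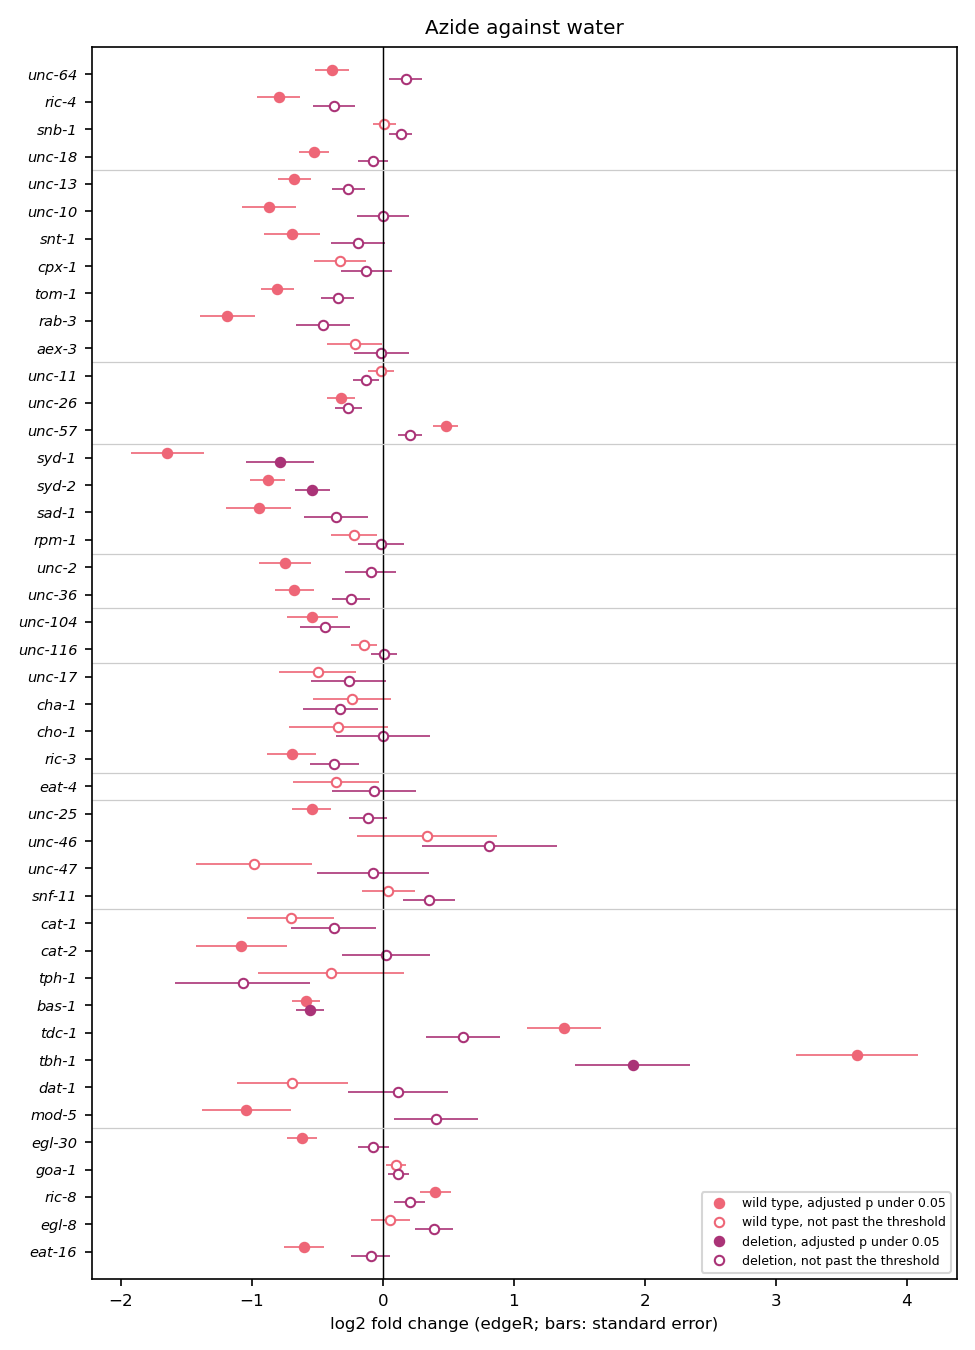
Log2 fold change of azide against water (x axis, edgeR, bars are the standard error) for each of the 44 synaptic genes (y axis, by role; TMM scaling), in wild type and in the *mir-71* deletion. Filled points passed an adjusted p of 0.05: 22 genes fell and 4 rose in wild type, and 3 fell and 1 rose in the deletion.

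In the *mir-71* deletion on azide against water, 3 genes fell, 1 rose and 40 were not called by edgeR, where 11.6% of all genes fell and 12.3% rose. The median log2 fold change was -0.08, against 0.03 over all genes. These counts turned on 1 library, replicate 3 of the deletion on azide. After leaving it out 12 genes fell and 2 rose, where 14.8% and 15.7% of all genes did, and the median was -0.34 against -0.01 over all genes. The added falls were of *ric-4*, *tom-1*, *rab-3*, *unc-26*, *sad-1*, *unc-104*, *unc-17*, *ric-3* and *unc-25*, and the added rise was of *tdc-1*. Leaving out other libraries of the deletion changed the counts as well: only *bas-1* fell without replicate 1 on water, none rose without replicate 2 on water, and without replicate 1 on azide *egl-8* rose in addition to *tbh-1*, *tph-1* fell and *syd-1* was no longer called. Of all genes, 7.36% fell without replicate 1 on water and 7.88% rose without replicate 2 on water. Without replicate 1 on azide 7.98% rose and 8.87% fell. With libraries centred on neuron markers or on body wall muscle markers, none of the 44 fell, where 4.76% and 4.97% of all genes did.

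*tbh-1* rose in the deletion too, with a log2 fold change of 1.91 (SE 0.440, edgeR adjusted p = 0.0122). It was 1.16, and still called, when replicate 1 on azide was left out, and the call was lost when replicate 2 on water was left out or the 2 groups were fitted alone. *bas-1* stood at 47.2, 51.6 and 42.9 CPM in the deletion on water and at 33.8, 34.2 and 28.5 CPM on azide. The groups did not overlap, and the log2 fold change was -0.55 (SE 0.109, edgeR adjusted p = 0.00290). In wild type, *bas-1* was 58.6, 49.6 and 52.2 CPM on water and 35.9, 33.5 and 37.4 CPM on azide. The difference between its changes in the 2 genotypes was 0.03 on the log2 scale (edgeR adjusted p = 0.909).

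*syd-2* stood at 53.8, 46.3 and 51.1 CPM in the deletion on water and at 27.1, 35.4 and 41.7 CPM on azide, with no overlap. Its log2 fold change was -0.54 (SE 0.134, edgeR adjusted p = 0.0115), and the call was lost in 4 of 20 alternatives (neuron centring, muscle centring, the 2 groups alone and without replicate 1 on water). *syd-1*, with the values given above, had overlapping groups in the deletion and a log2 fold change of -0.79 (SE 0.259, edgeR adjusted p = 0.0418), and this call was lost in 12 of 20 alternatives.

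**Figure D3:**
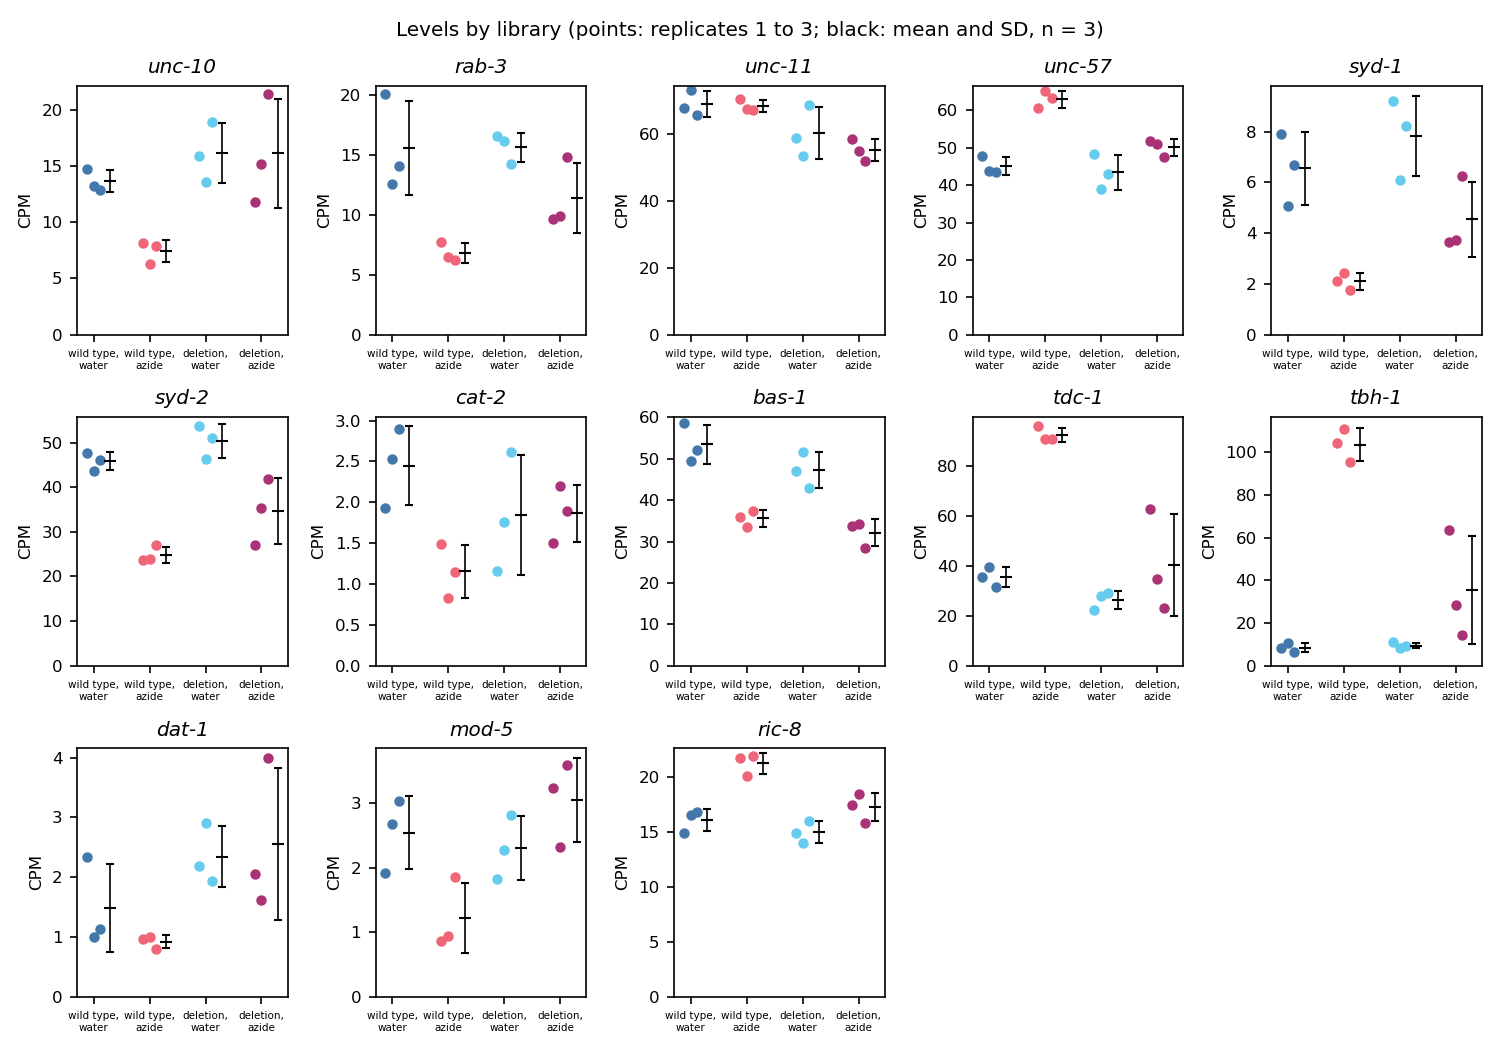
CPM (y axis, from 0) of 13 genes, those among the 4 largest called rises or falls of a comparison, in the 4 groups (x axis); coloured points are replicates 1 to 3, and black marks the mean and SD (n = 3). *tbh-1* and *tdc-1* are highest in wild type on azide, *syd-1*, *rab-3* and *unc-10* are lowest there, and the 3 points of the deletion on azide are spread most for *tbh-1*.

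On water, the deletion and wild type did not differ in any of the 44 genes at an adjusted p of 0.05 by edgeR. At an unadjusted p under 0.05, 1 gene was higher and 0 were lower, against 7.18% and 7.01% of all genes. At an adjusted p of 0.05 edgeR called 0.744% of all genes higher and 0.758% lower. DESeq2 called 1 gene, *unc-36*, higher, where 2.16% of all genes were. The lowest adjusted p among the 44 was 0.138, for *unc-36*, which stood at 15.7, 12.6 and 14.1 CPM in wild type and at 19.3, 21.8 and 17.4 CPM in the deletion, without overlap (log2 fold change 0.47; *unc-36* is named here after its values were seen). edgeR called it higher in the fit that left out replicate 3 of the deletion on azide, where 2.44% of all genes were. The median log2 fold change was 0.02, and the fold changes ran from -0.43 for *tdc-1* to 0.97 for *tph-1*, whose few counts leave it imprecise. The groups did not overlap for 7 genes that were higher and 2 that were lower in the deletion, where 10.3% and 12.6% of all genes were so separated.

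On azide, the deletion and wild type differed in 23 of the 44 genes: 19 were higher and 4 lower in the deletion by edgeR, and 21 were not called. Of all genes, 20.1% were higher and 18.7% lower. The median log2 fold change was 0.45, against 0.04 over all genes. The groups did not overlap for 22 genes higher and 5 lower in the deletion, where 24.4% and 26.5% of all genes were so separated. This comparison shares the wild-type azide libraries with that of azide against water in wild type, so a gene that is low in those 3 libraries appears in both. The count was not stable. When replicate 3 of the deletion was left out 10 genes were higher, where 20.4% of all genes were, and when replicate 2 of wild type on azide was left out 11 were, where 14.8% of all genes were. Without replicate 3 of the deletion the median of the 44 was 0.23, against -0.03 over all genes. With muscle centring 7 were higher, against 11.4% of all genes. With neuron centring 4 were higher, against 8.9% of all genes, and 6 were lower, against 34.5%, *ric-8* and *egl-8* among them, and the median of the 44 was 0.03 and that of all genes -0.35.

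By role, the higher genes were *unc-64* and *ric-4* of the fusion machinery, both calcium channel genes (0.75 and 0.90 on the log2 scale for *unc-2* and *unc-36*), *syd-1* and *syd-2*, and 6 of the 7 genes of priming and fusion control, all but *aex-3*. Among the transmitter genes *ric-3*, *unc-25*, *snf-11*, *dat-1* and *mod-5* were higher, and among the G protein genes *egl-30* and *eat-16*. None of the endocytosis or kinesin genes was higher, nor was *eat-4*. With replicate 3 of the deletion left out, *unc-64*, *ric-4*, *unc-13*, *cpx-1*, *rab-3*, *syd-2*, *ric-3*, *snf-11* and *dat-1* were no longer called, which left 3 of the 7 genes of priming and fusion control and no gene of the fusion machinery. The log2 fold changes of *snb-1* and *goa-1* were 0.07 and 0.04.

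*unc-10*, which lies on chromosome X at 7272548 to 7280301 (minus strand), stood at 8.13, 6.30 and 7.90 CPM in wild type on azide and at 11.8, 15.2 and 21.3 CPM in the deletion on azide. On water it was 14.7, 13.2 and 12.9 CPM in wild type and 15.9, 13.6 and 18.9 CPM in the deletion. Wild type on azide was below every other library. The log2 fold change on azide was 1.11 (SE 0.208, edgeR adjusted p = 0.00139), and it was 0.82 (adjusted p = 0.00263) without replicate 3 of the deletion. *syd-1* was higher by 1.12 (SE 0.278, edgeR adjusted p = 0.00726), and by 0.79 (adjusted p = 0.0227) without that replicate.

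*dat-1*, which takes dopamine back into its neurons, stood at 0.972, 0.994 and 0.795 CPM in wild type on azide and at 2.05, 1.63 and 4.00 CPM in the deletion on azide. On water it was 2.33, 0.992 and 1.14 CPM in wild type and 2.19, 2.91 and 1.93 CPM in the deletion. The azide groups did not overlap, and the log2 fold change was 1.47 (SE 0.413, edgeR adjusted p = 0.0135). When replicate 3 of the deletion was left out it was 0.96 (adjusted p = 0.0590). *mod-5* stood at 3.24, 2.33 and 3.59 CPM in the deletion on azide and at 1.83, 2.27 and 2.82 CPM in the deletion on water, with the wild-type values given above. On azide it was higher in the deletion by 1.30 (SE 0.337, edgeR adjusted p = 0.00895), without overlap.

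The 4 genes that were lower in the deletion on azide were *tbh-1*, *tdc-1*, *unc-57* and *unc-11*. *tbh-1* had a log2 fold change of -1.54 (SE 0.418, edgeR adjusted p = 0.0160) and *tdc-1* of -1.20 (SE 0.281, edgeR adjusted p = 0.00737). For both genes all 3 deletion libraries on azide lay below all 3 of wild type. The *tbh-1* call was lost when replicate 2 of the deletion was left out and with muscle centring, and both calls were lost when the 2 azide groups were fitted alone. *unc-57* stood at 51.8, 51.005 and 47.5 CPM in the deletion on azide and at 48.3, 38.9 and 43.02 CPM on water. Its log2 fold change against wild type on azide was -0.33 (SE 0.0948, edgeR adjusted p = 0.0151). *unc-11* stood at 70.5, 67.4 and 67.2 CPM in wild type and at 58.4, 54.9 and 51.9 CPM in the deletion on azide (log2 fold change -0.31, SE 0.0998, edgeR adjusted p = 0.0244), and its call was lost in 7 of 20 alternatives. With replicate 2 of wild type on azide left out, *tbh-1* and *tdc-1* alone were lower, where 12.9% of all genes were. With replicate 2 of the deletion left out, *tdc-1* and *unc-57* alone were lower, where 13.9% of all genes were.

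**Figure D4:**
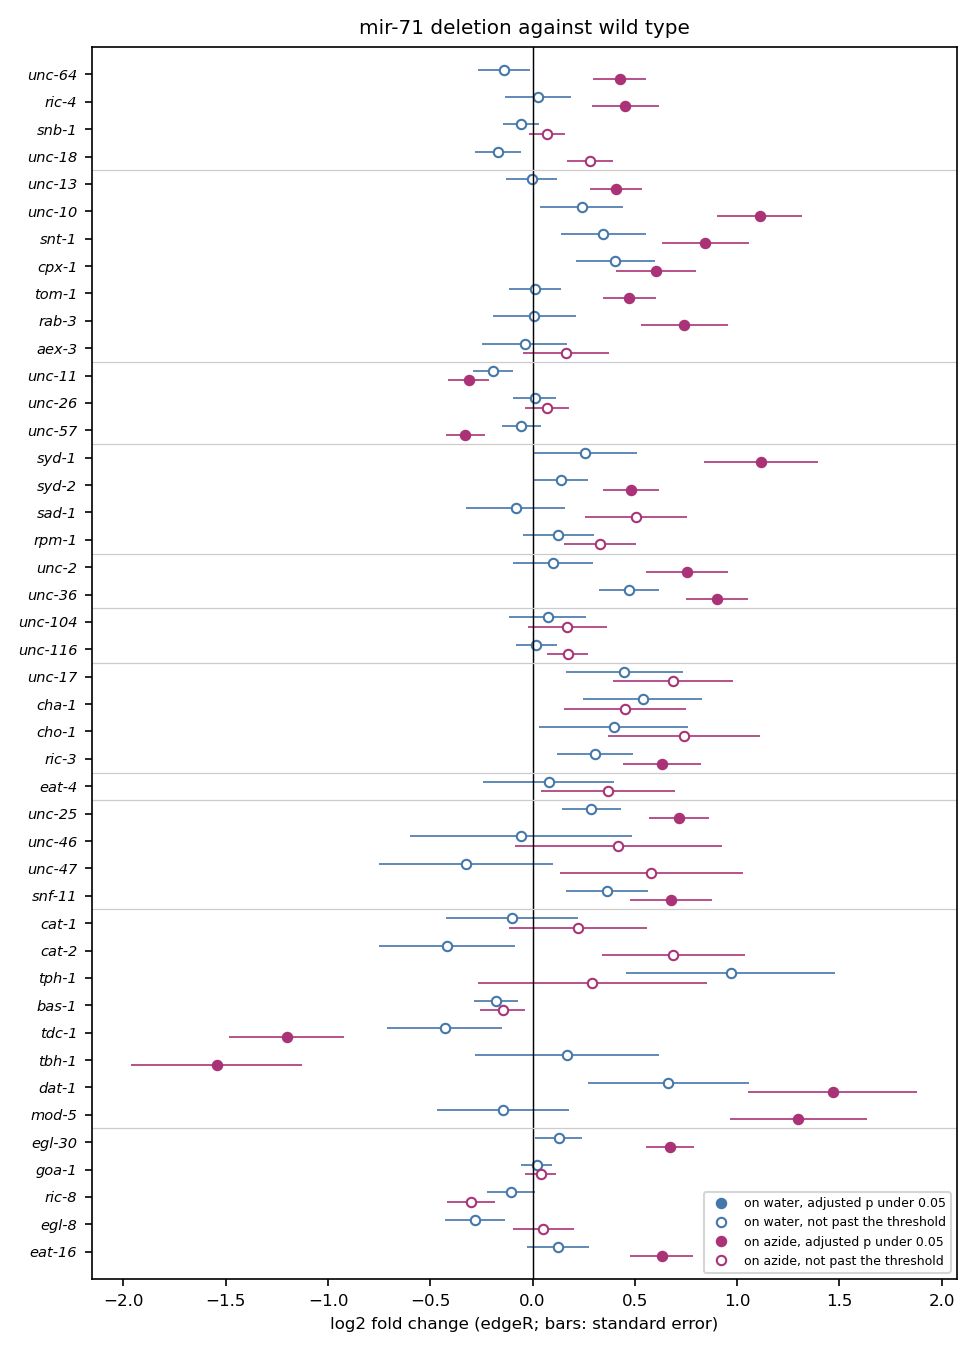
Log2 fold change of the *mir-71* deletion against wild type (x axis, edgeR, bars are the standard error) for each of the 44 synaptic genes (y axis, by role), on water and on azide. No point is filled on water, and 23 are filled on azide, 19 above 0 and 4 below.

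Whether azide acted differently in the 2 genotypes was tested as the difference of the 2 azide effects. None of the 44 genes passed an adjusted p of 0.05 by edgeR. At an unadjusted p under 0.05, 12 had a higher (less negative or more positive) azide effect in the deletion and 1 a lower effect. The shares of all genes were 15.7% and 13.6%. DESeq2 called *mod-5* higher and *tbh-1* lower, where 8.43% and 8.97% of all genes were. At an adjusted p of 0.05, 6.67% of all genes were called higher and 3.8% lower by edgeR. The lowest adjusted p were 0.0518 for *egl-30*, 0.0620 for *unc-64* and 0.0632 for *mod-5*, with differences of 0.54, 0.56 and 1.45 on the log2 scale. *egl-30*, named here after its values were seen, stood at 157, 165 and 163 CPM in wild type on water, 115.99, 95.9 and 104.4 CPM on azide, 187, 163 and 180 CPM in the deletion on water and 139, 169 and 195 CPM on azide. The difference for *tbh-1* was -1.71 (edgeR adjusted p = 0.10016). With replicate 1 of the deletion on azide left out, *unc-13*, *unc-10* and *egl-30* were called higher and *tdc-1* and *tbh-1* lower. In that fit 8.29% of all genes were higher and 10.6% lower. With replicate 3 of that group left out *tbh-1* was called lower, where 6.24% of all genes were. With replicate 3 of wild type on azide left out *mod-5* was called higher, where 4.68% of all genes were. A replicate block gave *mod-5* as higher, against 5.75% of all genes, and upper-quartile scaling *unc-64* and *egl-30*, against 8.29%. The median difference of the 44 was 0.34, against 0.06 over all genes, and it was -0.13 against -0.36 with neuron centring. Without replicate 3 of the deletion on azide this median was 0.11, against -0.04 over all genes.

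A companion list of 93 other synaptic and transmitter genes held 87 that were tested. In wild type, 37 of them fell and 9 rose on azide (42.5% and 10.3%, against 27.1% and 27.5% of all genes). The deletion on azide had 35 higher and 10 lower than wild type by edgeR (40.2% and 11.5%, against 20.1% and 18.7%). The medians were -0.36 and 0.32 on the log2 scale. With neuron centring 6 fell and 29 rose on azide in wild type, where 10.4% and 47.9% of all genes did, and on azide the deletion had 8 higher and 17 lower, where 8.9% and 34.5% of all genes were. With replicate 2 of wild type on azide left out, 22 were higher, where 14.8% of all genes were. Without replicate 3 of the deletion on azide 26 were higher and 13 lower, where 20.4% and 19.1% of all genes were. *cat-4*, the GTP cyclohydrolase that makes the biopterin cofactor of dopamine and serotonin synthesis, rose most, from 40.1 ± 2.14 to 111.9 ± 3.77 CPM in wild type (SD, n = 3; log2 fold change 1.48, edgeR adjusted p = 1.42e-06). It was followed by *klc-1*, a kinesin light chain (1.37), and *fsn-1*, the F-box partner of RPM-1 (1.22). The largest falls were of *glt-6* and *glt-7*, glutamate transporters (-1.64 and -1.25), and *unc-41*, the stonin of vesicle endocytosis (-1.27).

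In the deletion on azide, *glt-6*, *glt-7* and the acetylcholinesterase *ace-3* were the most raised against wild type of the companion genes (1.75, 1.55 and 1.51), and *vglu-3*, a vesicular glutamate transporter homologue, *cat-4* and *fsn-1* the most lowered (-1.02, -0.90 and -0.79). Within the deletion, 10 companion genes were called on azide against water, 8.05% higher and 3.45% lower where 12.3% and 11.6% of all genes were. The 7 that rose were led by the acetylcholinesterase *ace-1* (0.86), *fsn-1* (0.53) and *qdpr-1*, which regenerates biopterin (0.50), and the 3 that fell were *glt-5* (-0.74), *sph-1* (-0.50) and *aps-2*, a clathrin adaptor subunit (-0.47). These calls were lost in 11 of 20 alternatives for *ace-1*, 13 for *fsn-1*, 7 for *glt-5*, 8 for *sph-1*, 2 for *aps-2* and 1 for *qdpr-1*. With replicate 3 of the deletion on azide left out, 22 fell, where 14.8% of all genes did. On water no companion gene differed between genotypes by edgeR (6 were higher and 4 lower at an unadjusted p under 0.05, against 7.18% and 7.01% of all genes).

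In the test of the difference of the azide effects, 7 companion genes were called higher (8.05% of those tested, against 6.67% of all genes) and 3 lower (3.45% against 3.8%). The higher genes were led by *rimb-1*, the RIM-binding protein (0.94), *rbf-1*, a rabphilin (0.93), and *pmk-3*, a p38 kinase (0.83). The lower ones were *vglu-3* (-1.22), *cat-4* (-1.11) and *klc-1* (-0.87). With neuron centring none of the 7 was called higher, where 1.73% of all genes were.

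Genes of other tissues moved with the same groups. In wild type on azide, all 13 molting-cycle genes fell, all 16 oogenesis and eggshell genes rose and all 6 vitellogenins rose, and in the deletion on azide all of them differed from wild type on azide in the opposite direction. The summed oogenesis level was 951 to 1389 CPM in wild type on water, 6252 to 6656 CPM on azide and 681 to 1014 CPM in the deletion on water. In the deletion on azide it was 3056, 1942 and 1082 CPM in replicates 1, 2 and 3. In those 3 libraries 5 of the 44 synaptic genes took the same order (*tbh-1*, *tdc-1*, *unc-57*, *unc-11* and *tph-1*), and 17 took the reverse order, *rab-3*, *syd-1*, *unc-10* and *egl-30* among them. Of all genes tested, 23.9% fell and 24% rose from replicate 1 to 2 to 3 of that group. Markers of the gonadal sheath summed to 175 to 185 CPM in wild type on water, 211 to 239 CPM on azide, 206 to 268 CPM in the deletion on water and 207 to 255 CPM on azide, and in wild type 2 of the 5 rose on azide while 1 fell. Of 11 hypodermis markers, 7 fell on azide in wild type, where their sum went from 4252 to 5102 CPM to 749 to 794 CPM, and 8 were higher in the deletion on azide than in wild type. Of 14 genes of germline proliferation and meiosis, 10 rose on azide in wild type, with sums of 1383 to 1927 CPM on water and 2512 to 2694 CPM on azide, and 6 were lower in the deletion on azide. The intestine list of 11 had 2 higher and 4 lower on azide in wild type and none called between genotypes on azide, and the sperm list of 9 had 3 lower in the first comparison and 3 higher in the second. The glia list (5 of 6 tested) had 4 genes lower on azide in wild type and 4 higher in the deletion on azide, and the body wall muscle list of 18 had 1 lower in the first comparison and 2 higher and 1 lower in the second. No more than 1 gene of any list was at 0 in a library. The part of these lists in the results on synaptic genes was not tested.

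**Figure D5:**
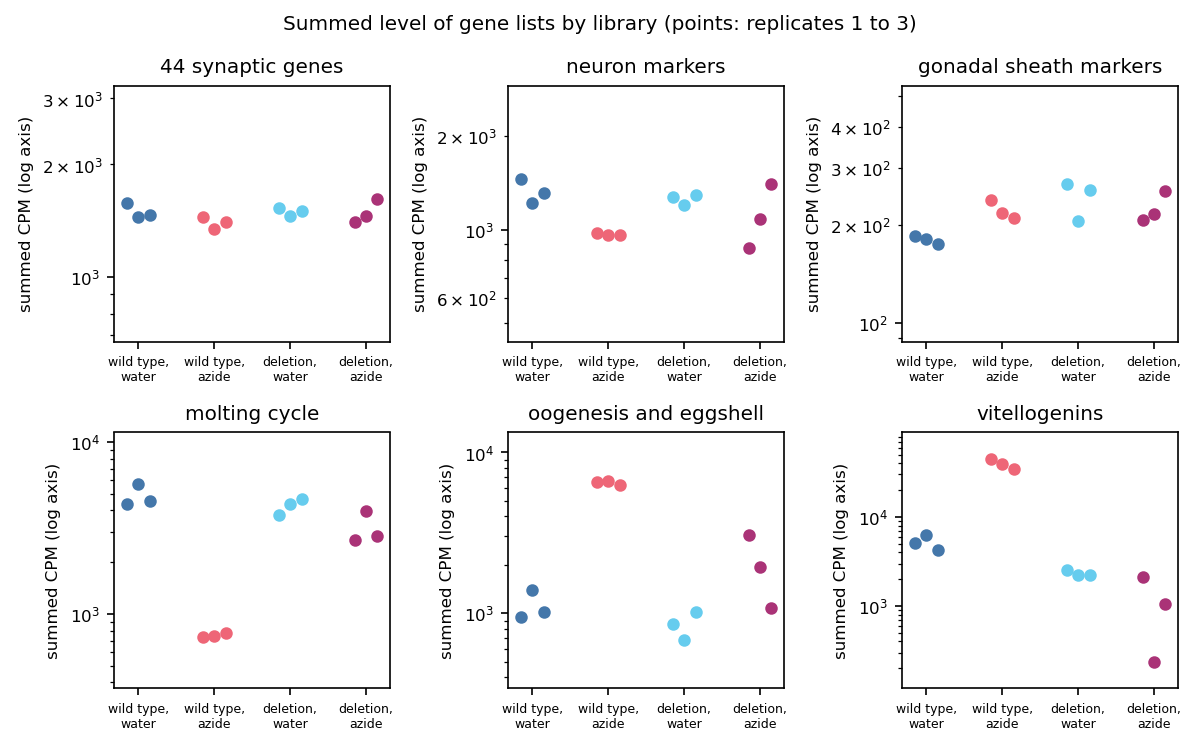
Summed CPM (y axis, log scale) of 6 gene lists in each library of the 4 groups (x axis); points are replicates 1 to 3. The synaptic genes sum to between 1346 and 1619 CPM in every library, the oogenesis and vitellogenin lists are highest and the molting list lowest in wild type on azide, and the neuron markers span 869 to 1406 CPM in the deletion on azide. The synaptic sum is weighted to the genes with the highest counts. It takes in the rises of *tbh-1* and *tdc-1* on azide in wild type, where 22 of the 44 genes fall.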

How the data were processed

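RNA-seq of 12 whole-animal libraries was used, 16828108 to 23937993 counts each. Per the study's methods, the authors trimmed reads with Cutadapt 1.9.1, aligned them to WBcel235 with HISAT2 2.0.1 and deposited gene counts from HTSeq 0.6.1 (strand setting not given in the sources used here), with FPKM that the authors derived from these counts, gene size and library total. The azide dose of this experiment was not given in the sources used here. Counts were tested with edgeR 4.0.16 (R 4.3.3; TMM, filterByExpr, minimum count 10, robust quasi-likelihood test, 4 group means over all 12 libraries, two-sided, Benjamini-Hochberg over 15048 genes, threshold 0.05), and the standard error was taken from the F statistic. The script was tested on simulated data. FPKM served for levels between genes and for ratios within libraries.

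Alternatives were DESeq2 1.42.0, other scalings (upper quartile, DESeq2 size factors, neuron or muscle markers), no filter, a replicate block, the 2 groups alone, and leaving out each library. Same-numbered libraries did not deviate together (12 correlations, -0.107 to 0.0824).

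Genes were named with values by library, in the groups compared, where they were among the 4 largest rises or falls past the threshold in a comparison. The 3 largest each way of the companion list were named by fold change, and *unc-36* and *egl-30* after their values were seen. Members and lists were chosen with earlier results of these data known. mir-71 itself was not measured. Sequences were not analysed here.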

Additional observations from a re-analysis of the deposited data

Results flagged for a closer look

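A test of the difference between the azide effects of the 2 genotypes picked out 6 genes of the companion list that are named in the report, out of 10 called in that list (8.05% higher and 3.45% lower, against 6.67% and 3.8% of all genes). The difference, deletion minus wild type on the log2 scale, was 0.94 for *rimb-1* (edgeR adjusted p = 0.0204, lost in 4 of 19 alternatives), 0.93 for *rbf-1* (edgeR adjusted p = 0.0299, lost in 9) and 0.83 for *pmk-3* (edgeR adjusted p = 0.0209, lost in 6). It was -1.22 for *vglu-3* (edgeR adjusted p = 0.0232, lost in 6), -1.11 for *cat-4* (edgeR adjusted p = 0.00205, lost in 1) and -0.87 for *klc-1* (edgeR adjusted p = 0.0449, lost in 14).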

How the results depend on the processing

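Most limits came from scale and from single libraries. With neuron centring, the counts of called synaptic genes became 4 higher and 6 lower for the deletion on azide, 10 higher and 2 lower for azide in wild type, and 2 higher and 0 lower for azide in the deletion. With muscle centring they became 7 higher and 1 lower for the deletion on azide. For azide in wild type they became 2 higher, and for azide in the deletion 0 lower. Of all genes, muscle centring called 11.4% higher and 9.67% lower for the deletion on azide and 17.6% higher for azide in wild type. For azide in the deletion 4.97% were lower with muscle centring, and 9.52% higher and 4.76% lower with neuron centring. These scalings also moved the whole transcriptome: of all genes, 1340 were higher and 5187 lower for the deletion on azide with neuron centring and 7205 and 1569 for azide in wild type, against 3024 and 2820, and 4138 and 4079, with TMM. Upper-quartile scaling gave 2 lower for the deletion on azide and 2 higher for the difference of the azide effects (all genes 3845 and 1834 for the deletion on azide, 3350 and 5057 for azide in wild type). The 2 groups alone gave 2 lower for the deletion on azide and, for azide in the deletion, 0 higher and 1 lower. Of all genes, 14.8% were lower in the first, and 5.35% higher and 6.22% lower in the second. DESeq2 called 1 gene higher for the deletion on water, and 1 higher and 1 lower for the difference.

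Fits that left out 1 library gave, for the deletion on water, 0 to 1 higher and 0 to 0 lower; for the deletion on azide, 10 to 20 higher and 2 to 4 lower; for azide in wild type, 3 to 4 higher and 17 to 22 lower; for azide in the deletion, 0 to 2 higher and 1 to 12 lower; and for the difference, 0 to 3 higher and 0 to 2 lower. Over all genes, higher and lower, these fits called 0.242% to 2.44% and 0.177% to 2.37% for the deletion on water. They called 14.8% to 20.4% and 12.9% to 20.8% for the deletion on azide. For azide in wild type the shares were 24% to 30.3% and 22.4% to 29.2%, and in the deletion 6.85% to 15.7% and 7.36% to 14.8%. For the difference they were 4.11% to 10.5% and 1.21% to 10.6%. The replicate block gave 1 gene higher for the difference (*mod-5*), 18 higher and 4 lower for the deletion on azide, 4 and 22 for azide in wild type, and 1 and 2 for azide in the deletion. Of all genes the block called 5.75% higher for the difference, and 18.5% higher and 17.2% lower for the deletion on azide. It called 26.6% and 26% for azide in wild type, and 10% and 10% for azide in the deletion. Companion genes were rerun under the same alternatives, a choice made after seeing the data. Of the 53 called values of the 44 genes, 5 changed sign in 1 alternative, neuron centring, all for azide in wild type and none called there: *unc-64* (0.19), *unc-18* (0.05), *unc-26* (0.24), *unc-104* (0.04) and *unc-25* (0.03). Of the 167 values not called, 89 changed sign in at least 1 alternative. The calls of *rab-3*, *syd-1*, *tbh-1* and *tdc-1* for azide in wild type, and of *syd-1* and *unc-10* for the deletion on azide, held in all 20. The cause of these shifts was not tested. *tph-1* and *unc-46* had few counts; *tph-1* was called lower for azide in the deletion when replicate 1 on azide was left out.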
